A study of Homo sapiens with 3 samples.

Results

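Ribosomal protein pseudogenes were followed through 3 RNA sequencing libraries of HEK 293T cells, a line from human embryonic kidney, with 1 library per group. The cell line label gives HEK 293T for every library, and the sample titles shorten it to HEK293. One library came from cells overexpressing ADAR2 together with SRSF9 (the ADAR2+SRSF9 library), one from cells overexpressing ADAR2 alone (the ADAR2 library) and one from cells without overexpression (the control). ADAR2, the product of ADARB1, converts adenosine to inosine in double-stranded RNA, and SRSF9 belongs to the SR proteins, which bind RNA and act in splicing. The study addressed the effect of SRSF9 on editing at ADAR2 sites, whereas the values here are reads counted per gene. The labels do not say how the proteins were introduced, and no library carries SRSF9 without ADAR2 or an empty vector. Members were chosen by symbol and by level in the control: they are the rows whose symbol is that of a ribosomal protein gene followed by P and a number and whose level in the control was 1 CPM (count per 1000000 reads of the scaled library) or more. Of 57268 rows, 802 had such a symbol and 208 of these were members. They belong to 58 parent genes, the genes named by the symbol without its P and number. Because the control level chose the members, that level is given as a description, and comparisons with the control share the library that chose them.

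Ribosomal proteins are the protein building blocks of the ribosome, grouped into those of the large subunit (RPL genes and the stalk genes RPLP0, RPLP1 and RPLP2) and those of the small subunit (RPS genes and RPSA). Their messenger RNAs are among the most abundant in growing cells, and over evolution many were reverse-transcribed and inserted elsewhere in the genome. Such processed pseudogenes resemble the spliced messenger RNA: they lack introns, usually have no promoter of their own, and have gathered substitutions at different rates. A short read from a messenger RNA can therefore match both the parent gene and its copies, and reads counted at a copy need not come from transcription of the copy. The sources used here do not say how reads with several matches were counted.

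The 2 overexpressed genes followed the labels. ADARB1 had 13647 CPM with both proteins and 16100.0 CPM with ADAR2, against 114 CPM in the control. SRSF9 had 18288 CPM with both proteins, against 369 CPM with ADAR2 and 372 CPM in the control. The ADAR2+SRSF9 library was the shallowest with 97875935 reads, against 132887974 with ADAR2 and 152878282 in the control. Of 12 genes chosen as markers of HEK 293T cells, 11 reached 1 CPM with both proteins, 12 with ADAR2 and 11 in the control. PTPRC, the pan-leukocyte marker, had 0 reads with both proteins, 5 with ADAR2 and 6 in the control. The summed level of 9 blood markers was 1346 CPM with both proteins, against 21.3 CPM with ADAR2 and 19.1 CPM in the control, nearly all of it from the globin genes HBB (383 CPM) and HBD (946 CPM). The part of this difference, and of depth, in the results below was not tested.

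The members spanned more than 3 orders of magnitude in the control, from 1.02 to 1637 CPM with a median of 5.44 CPM. The 3 most abundant, RPS2P5, RPL41P1 and RPL39P3, held 37.0% of the members' reads in the control, and the 10 most abundant held 54.6%. As a set the members took 0.635% of all reads in the ADAR2+SRSF9 library, 0.765% in the ADAR2 library and 0.771% in the control. Just inside the limit lay RPL34P27 (1.02 CPM), RPL27AP5 (1.04 CPM) and RPS4XP8 (1.06 CPM). Just outside it lay RPL36AP51 (0.990 CPM), RPS12P26 (0.945 CPM) and RPL12P41 (0.932 CPM). Of the 594 matching rows below the limit, 198 had no read in any library, and together the 594 took 0.00551% of the control's reads. The fewest reads of any member were 58 in the ADAR2+SRSF9 library, 93 in the ADAR2 library and 158 in the control.

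GENCODE v29 lists 205 of the 208 members: 191 as processed pseudogenes, 13 as transcribed processed pseudogenes and 1, RPL32P3, as a transcribed unprocessed pseudogene, a copy that kept introns. They lie on 23 chromosomes, at most 15 on any of them (chromosome 19), and 196 lie on another chromosome than their parent. Their longest transcripts have a median length of 598 bases. The best single alignment to a parent transcript had a median identity of 94.8% (quartiles 93.0% and 97.1%). It covered the member's full transcript for 160 of the 205, so for the others the identity is that of a part. A stricter measure was the share of a member's 50-base windows that occur unchanged in a transcript of its parent. Its median was 8.17%, so most members differ from their parent somewhere in nearly every stretch of that length, but it was 100% for RPL41P1 and RPL39P3. The measure leaves out windows shared with genes other than the parent, so it does not show how much of a member is unique.

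The sequences below show this range for 2 of the 3 members with the most reads, RPL41P1 and RPL39P3, and for the 3 members with the lowest ratio of the ADAR2+SRSF9 to the ADAR2 library at 5 CPM or more in the control. Each line gives the coding stretch of at most 90 bases in which copy and parent differ most, 5′ to 3′, from the GENCODE v29 transcripts, with the bases that differ between copy and parent in capitals.
RPL41P1 (chromosome 20): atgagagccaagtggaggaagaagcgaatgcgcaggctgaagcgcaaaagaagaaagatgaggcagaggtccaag
RPL41 (chromosome 12): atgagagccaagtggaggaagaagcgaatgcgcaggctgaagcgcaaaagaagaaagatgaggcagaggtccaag
RPL39P3 (chromosome 6): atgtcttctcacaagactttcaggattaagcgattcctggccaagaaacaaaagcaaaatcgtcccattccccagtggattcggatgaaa
RPL39 (chromosome X): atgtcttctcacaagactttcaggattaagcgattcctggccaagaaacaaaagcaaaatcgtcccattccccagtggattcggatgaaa
RPS4XP14 (chromosome 12): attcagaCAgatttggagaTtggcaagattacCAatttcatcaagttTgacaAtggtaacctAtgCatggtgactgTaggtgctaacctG
RPS4X (chromosome X): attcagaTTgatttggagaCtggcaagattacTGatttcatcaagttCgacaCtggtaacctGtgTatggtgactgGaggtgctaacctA
RPS3P6 (chromosome 12): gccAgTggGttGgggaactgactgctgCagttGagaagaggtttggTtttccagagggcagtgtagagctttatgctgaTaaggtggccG
RPS3 (chromosome 11): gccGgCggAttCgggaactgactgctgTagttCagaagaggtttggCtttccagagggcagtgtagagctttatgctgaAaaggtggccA
RPL35P5 (chromosome 7): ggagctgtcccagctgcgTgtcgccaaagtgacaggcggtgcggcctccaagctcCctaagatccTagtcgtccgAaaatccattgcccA
RPL35 (chromosome 9): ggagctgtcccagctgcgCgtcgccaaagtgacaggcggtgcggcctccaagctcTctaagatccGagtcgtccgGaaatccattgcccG
RPL41P1 and RPL39P3 match their parents at every base shown. RPS4XP14, RPS3P6 and RPL35P5 differ at 11, 9 and 5 of their 90 bases.

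Set against ADAR2 alone, most of these pseudogenes were lower in the library with both proteins. The members' median level was 3.62 CPM in the ADAR2+SRSF9 library and 5.53 CPM in the ADAR2 library. The median log2 ratio was -0.50, a ratio of 0.709, with quartiles of -0.65 and -0.34, and 197 of the 208 ratios were below 0. Over all 16093 genes at 1 CPM or more in the control, the median log2 ratio was 0.01 and 7506 ratios were below 0. A gene was counted as lower or higher when its ratio was past 1.5-fold and its 95% counting interval excluded 1. By that count 68 members were lower (32.7%) and 1 was higher, against 2.68% lower and 0.826% higher over all genes tested. The counting interval lay below 1 for 182 members and above 1 for 7, against 3727 and 4400 of the 16093 genes tested. The comparison of ADAR2+SRSF9 with ADAR2 does not involve the library that chose the members. However, the set was chosen with earlier results of that comparison known, and no difference here could be checked in replicates.

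**Figure D1:**
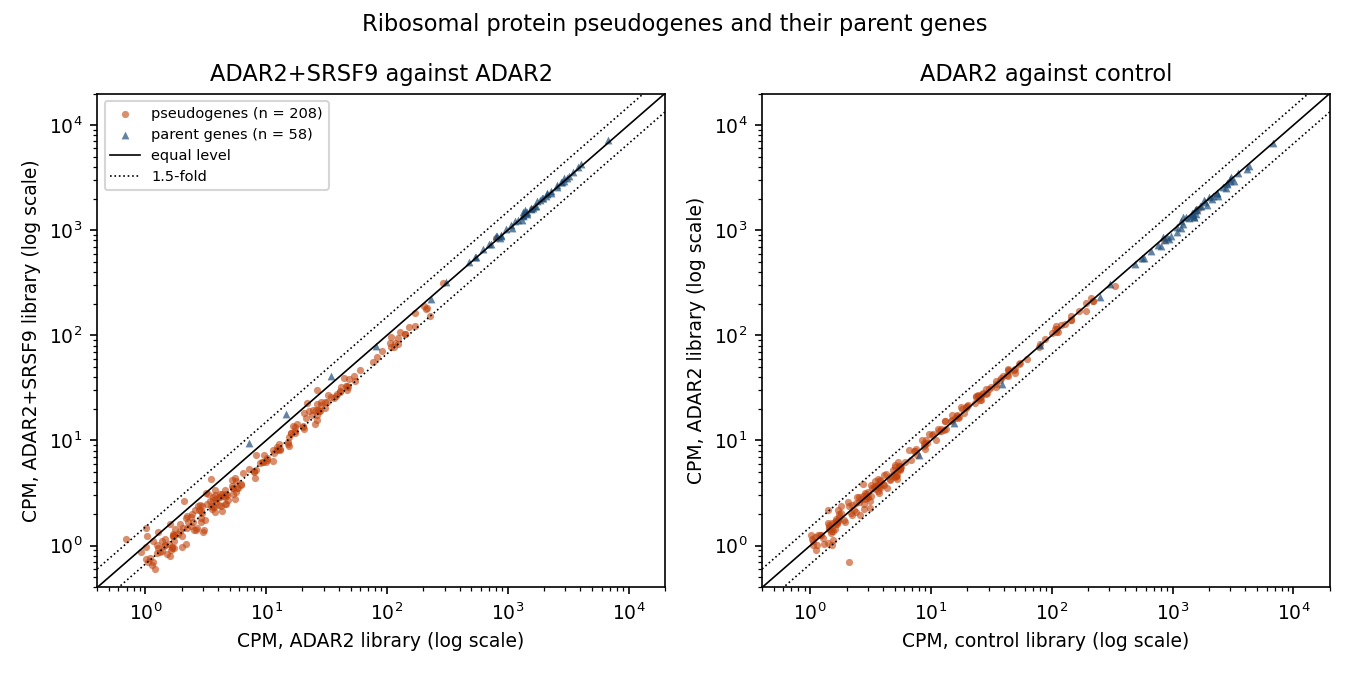
Level of each pseudogene (circles) and of each parent gene (triangles), in CPM on log axes. Left, the ADAR2+SRSF9 library (vertical) against the ADAR2 library, where most pseudogenes lie under the line of equal level and parents lie near it. Right, the ADAR2 library (vertical) against the control, where 1 pseudogene is called lower and 1 higher; dotted lines mark 1.5-fold.

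**Figure D2:**
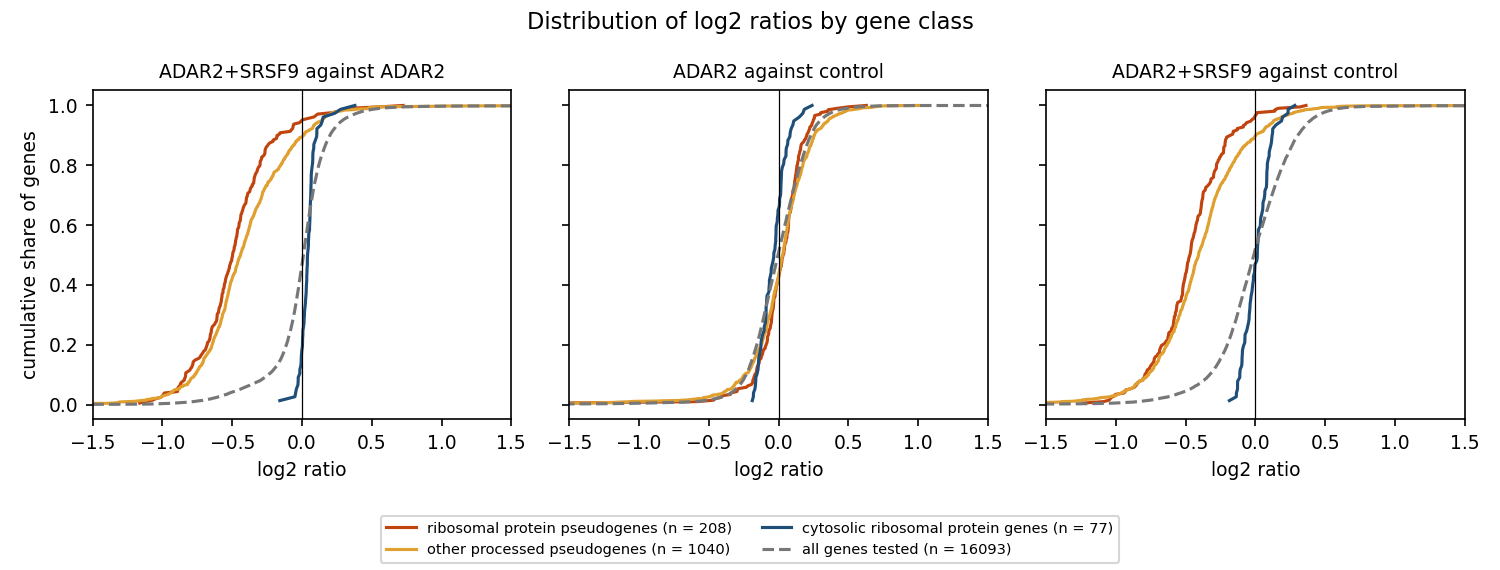
Cumulative share of genes (vertical) by log2 ratio (horizontal) in the 3 comparisons, for ribosomal protein pseudogenes, other processed pseudogenes, cytosolic ribosomal protein genes and all genes tested. In the comparisons that involve the ADAR2+SRSF9 library the medians of both pseudogene sets lie left of 0, from -0.50 to -0.41.

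At 5 CPM or more in the control, RPS4XP14 had the lowest ratio. This copy of RPS4X, the X-linked gene of a small-subunit protein, stood at 2.79 CPM with both proteins, against 5.52 CPM with ADAR2 and 5.59 CPM in the control. Its ratio to the ADAR2 library was 0.505 (95% counting interval 0.437 to 0.581). RPS3P6, a copy of the small-subunit gene RPS3, had 4.40 CPM with both proteins, 8.17 CPM with ADAR2 and 6.63 CPM in the control, a ratio to ADAR2 of 0.539 (0.480 to 0.603). RPL35P5, a copy of the large-subunit gene RPL35, had 6.42 CPM with both proteins, 11.4 CPM with ADAR2 and 9.65 CPM in the control, a ratio of 0.561 (0.510 to 0.616). In each of the 3 the ADAR2+SRSF9 library was the lowest, and ADAR2 and control were closer to each other than to it.

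The other 7 of the 10 lowest were RPS10P3, RPL5P3, RPL18P13, RPL5P5, RPS2P4, RPL36AP26 and RPS4XP22, at ratios of 0.561 to 0.608. RPS10P3, a copy of a small-subunit gene, had 14.4 CPM with both proteins, 25.6 CPM with ADAR2 and 24.98 CPM in the control. All 10 were lower in the ADAR2+SRSF9 library than in each of the other libraries, and none was 2-fold lower than with ADAR2. The 6 members lower by 2-fold or more, named here after their values were seen, were weaker: RPL30P4 (0.447), RPL10P3 (0.457), RPL5P22 (0.476), RPS27AP1 (0.483), RPL3P3 (0.496) and RPL8P2 (0.4999). Their control levels ran from 1.10 to 2.92 CPM. Of all 16093 genes tested, 48 were lower by 2-fold or more.

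**Figure D3:**
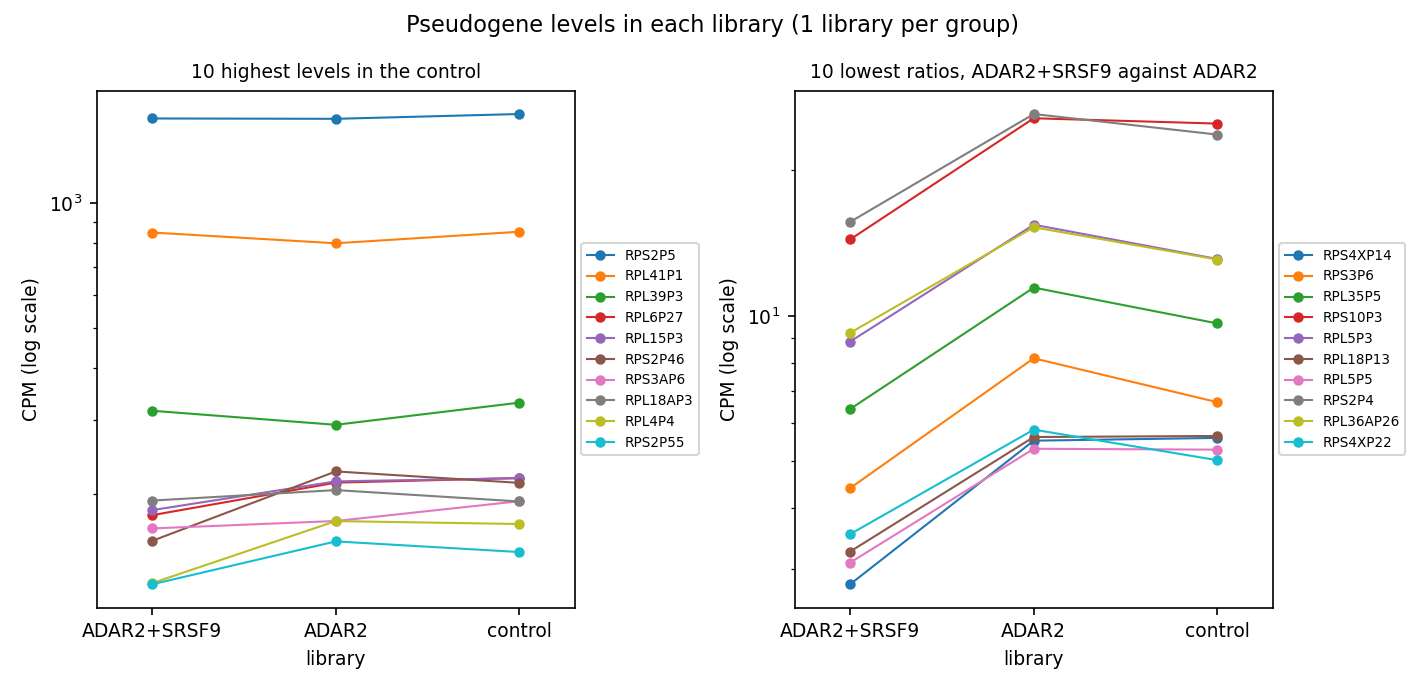
Level in CPM (log axis) in the ADAR2+SRSF9 library, the ADAR2 library and the control, each line 1 pseudogene. Left, the 10 with the highest control level, of which the top 3 are near level; right, the 10 with the lowest ratio of ADAR2+SRSF9 to ADAR2, all lowest in the ADAR2+SRSF9 library.

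The most abundant copies were exceptions. RPS2P5 (ENSG00000240342.2), a copy of the small-subunit gene RPS2, had 1597 CPM with both proteins, 1594 CPM with ADAR2 and 1637 CPM in the control. Its ratio to the ADAR2 library was 1.002 (0.995 to 1.009). The parent RPS2 had 7144 CPM with both proteins, 6823 CPM with ADAR2 and 6754 CPM in the control, a ratio of 1.047 (1.044 to 1.050). RPL41P1, a copy of the gene for one of the smallest ribosomal proteins, had 849 CPM with both proteins, 799.8 CPM with ADAR2 and 853 CPM in the control, a ratio of 1.06 (1.05 to 1.07). RPL39P3, a copy of the large-subunit gene RPL39, had 316 CPM with both proteins, 293 CPM with ADAR2 and 331 CPM in the control, a ratio of 1.08 (1.06 to 1.10). All 3 copies had their lowest level in the ADAR2 library and their highest in the control.

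Among the remaining 7 of the 10 most abundant members every ratio to the ADAR2 library was below 1, with a counting interval below 1, but the sizes varied. RPL18AP3, at 192 CPM with both proteins, 204 CPM with ADAR2 and 191 CPM in the control, had a ratio of 0.944, and RPS3AP6 one of 0.960. RPL15P3, RPL6P27 and RPS2P55 stood at 0.853, 0.835 and 0.788, and RPL4P4 and RPS2P46 at 0.709 and 0.681. RPS2P46, RPS2P55 and RPS2P5 are all copies of RPS2, so copies of 1 parent did not share a ratio. None of the 19 members at 100 CPM or more in the control was lower by 1.5-fold, and their median log2 ratio was -0.34. Of the 83 members at 10 CPM or more, which include those 19, 11 were lower by 1.5-fold, with a median of -0.46. Of the 31 members from 5 to 10 CPM, 19 were lower by 1.5-fold, with a median of -0.61, and of the 94 below 5 CPM 38 were, with a median of -0.52. Over all genes tested, whatever their level, 2.68% were lower, and their share within these bands was not computed.

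The highest ratio at 5 CPM or more belonged to RPL32P3, which has 5 annotated exons. The best single alignment of its 2816-base transcript to a protein-coding transcript of RPL32 spanned 102 bases. Further alignments were not added up, so how much of the row is sequence shared with the parent was not determined. It had 30.5 CPM with both proteins, 26.3 CPM with ADAR2 and 24.4 CPM in the control, a ratio of 1.16 (1.11 to 1.22) to the ADAR2 library. Below it came RPL39P3, RPL41P1, RPL23AP79 (1.03), RPS2P5, RPS3AP6, RPL18AP3, RPSAP47 (0.893), RPSAP58 (0.883) and RPL23AP7 (0.883). The identifier of the RPL23AP79 row bears the name CENPBD1P1 in GENCODE v29, so that row may not measure a ribosomal protein copy. The best single alignment of its 3282 bases to RPL23A spanned 66 bases. In all, 14 members are annotated as transcribed pseudogenes. Their median log2 ratio was -0.30 with 1 of 14 lower by 1.5-fold (RPL13AP3), against -0.51 with 67 of 191 for those listed as processed pseudogenes without that note.

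Parents did not follow their copies. The 58 parent genes had a median log2 ratio of 0.05 for ADAR2+SRSF9 against ADAR2, with a range of -0.05 to 0.38, and none was past 1.5-fold in the counts. Of the 208 members 199 had a lower ratio than their own parent, and the median of the member's log2 ratio minus its parent's was -0.56. In 56 of the 58 families the members' median lay below the parent, and in 36 of the 42 families with 2 or more members every member did. Members of a family share sequence and may share reads, so they are not independent of each other. As a measure that needs no library scaling, the members' share of the summed reads of members and parents was 6.17% (95% interval 6.15% to 6.18%) in the ADAR2+SRSF9 library, 7.36% (7.35% to 7.38%) in the ADAR2 library and 7.21% (7.20% to 7.22%) in the control. These exact binomial intervals cover counting error only.

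In each of the 5 families with 9 or more members that share was lowest in the ADAR2+SRSF9 library and highest in the ADAR2 library. RPL5, whose protein binds the 5S ribosomal RNA, had 16 members, which took 4.91% of the family's reads with both proteins, 6.79% with ADAR2 and 6.14% in the control. The most abundant of them, RPL5P34, had 46.5 CPM with both proteins, 59.5 CPM with ADAR2 and 62.8 CPM in the control. The RPL5 parent itself had 2551 CPM with both proteins, 2546 CPM with ADAR2 and 2789 CPM in the control. The 13 copies of RPS4X took 1.52% of their family's reads with both proteins, 2.25% with ADAR2 and 2.12% in the control. The most abundant, RPS4XP3, stood at 11.8 CPM with both proteins, 16.2 CPM with ADAR2 and 16.8 CPM in the control. For RPL21, a large-subunit gene with 11 members, the shares were 12.5% with both proteins, 16.7% with ADAR2 and 15.4% in the control. Its most abundant copy, RPL21P119, had 38.2 CPM with both proteins, 48.3 CPM with ADAR2 and 50.05 CPM in the control. So the leading copy of each of these 3 families was highest in the control, whereas the family's share was highest with ADAR2. The summed copies were also lower with ADAR2 than in the control for RPS4X (67.8 against 69.6 CPM) and RPL21 (142 against 145 CPM). For RPL5 they were slightly higher (185 against 183 CPM). All 3 parents were lower with ADAR2 than in the control, RPS4X at 2947 against 3219 CPM and RPL21 at 706 against 795 CPM.

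RPS3A, a small-subunit gene, had 10 members with 26.0% of the family's reads with both proteins, 31.3% with ADAR2 and 29.96% in the control. Its copy RPS3AP6 stood at 165 CPM with both proteins, 172 CPM with ADAR2 and 192 CPM in the control. RPSA, which encodes a small-subunit protein also known as the laminin receptor, had 9 members with 7.58% of reads with both proteins, 9.88% with ADAR2 and 9.61% in the control. RPSAP58 had 95.5 CPM with both proteins, 108.2 CPM with ADAR2 and 109 CPM in the control. The 7 copies of RPS2, 1 of 4 families of that size, held 21.7% with both proteins, 23.8% with ADAR2 and 24.1% in the control, most of it in RPS2P5. The RPS2 share was also lowest with both proteins, but highest in the control.

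**Figure D4:**
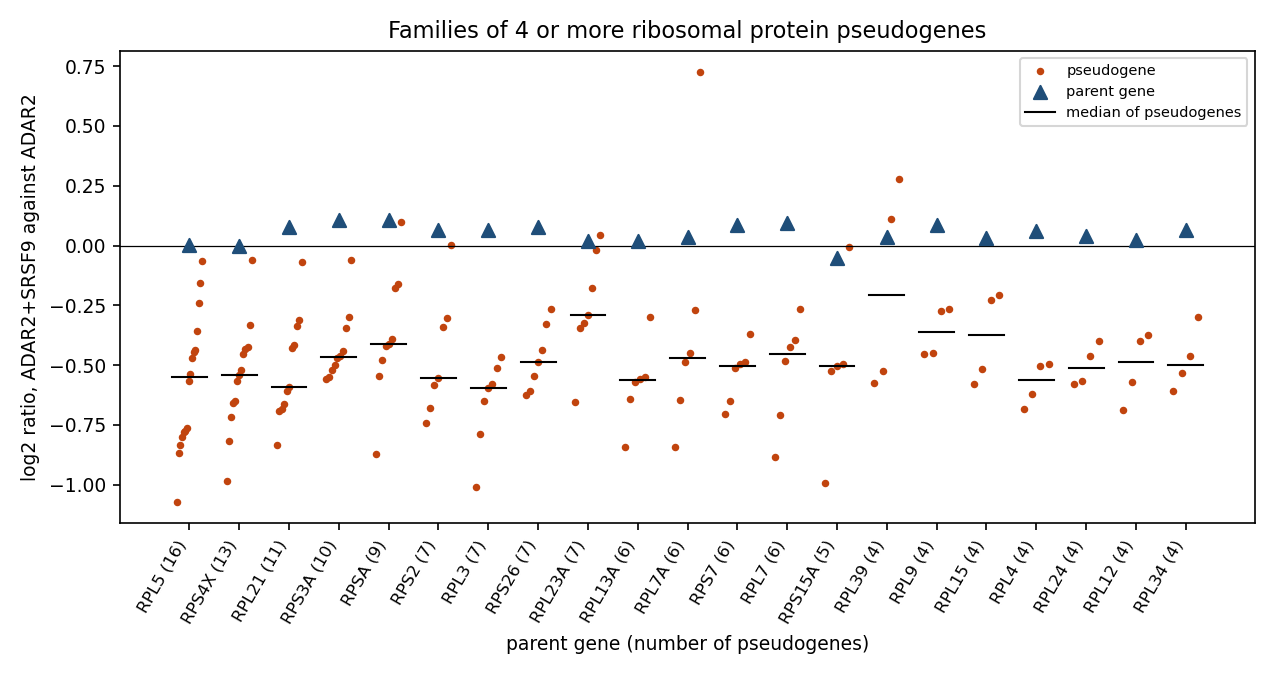
Log2 ratio of the ADAR2+SRSF9 library to the ADAR2 library (vertical) for each pseudogene (points), the median of the pseudogenes (bars) and the parent gene (triangles), in the 21 families with 4 or more members. Family medians lie between -0.60 and -0.21, and every triangle lies between -0.05 and 0.11.

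In 3 families the parent row itself was weak and had the highest parent ratios. RPS10 stood at 9.40 CPM with both proteins, 7.22 CPM with ADAR2 and 7.99 CPM in the control, fewer reads than its copy RPS10P3. RPL17 had 17.7 CPM with both proteins, 14.6 CPM with ADAR2 and 15.6 CPM in the control. RPL36A had 40.9 CPM with both proteins, 34.7 CPM with ADAR2 and 38.6 CPM in the control. All 3 had their highest level with both proteins. GENCODE v29 lists a readthrough gene over the exons of each: RPS10-NUDT3, RPL17-C18orf32 and RPL36A-HNRNPH2. How reads shared by overlapping genes were counted is likewise unknown, so these parent levels are uncertain, and so is the copies' share of these families' reads (for RPS10 62.8% with both proteins, 79.1% with ADAR2 and 76.9% in the control).

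Likeness to the parent went with the level of a copy. Across the 205 members with a sequence, Spearman's rho between the control level and the percent identity of the best single alignment was 0.65. With the share of 50-base windows found in the parent it was 0.64. These are descriptions across genes of 1 library, in which close copies can share reads. The ratio of ADAR2+SRSF9 to ADAR2 had little rank relation to either measure (rho of 0.13 and -0.02), but its median was not level across the range. It was -0.27 for the 19 members with none of their windows in the parent, -0.54 for the 93 with up to 10%, -0.56 for the 68 from 10% to 50% and -0.37 for the 23 above 50%. The 2 members with all windows in the parent, RPL41P1 and RPL39P3, were at 0.09 and 0.11, and their parents RPL41 and RPL39 at 0.15 and 0.04. The members with none of their windows in the parent were weak, with a median control level of 2.23 CPM.

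**Figure D5:**
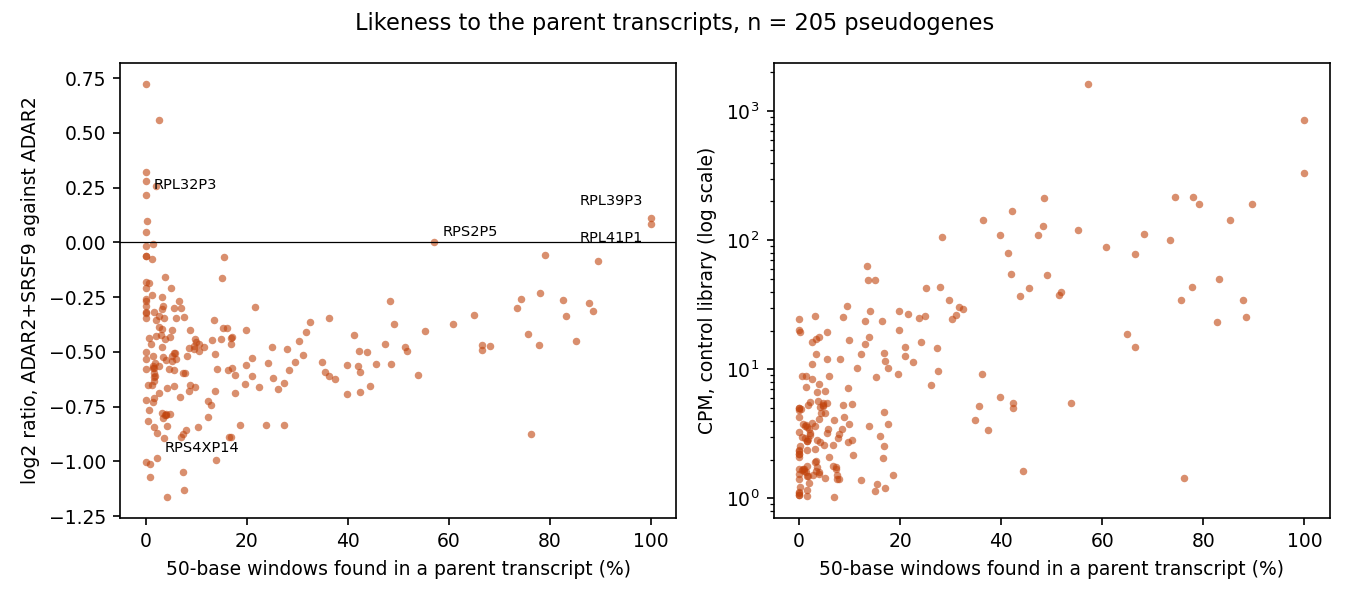
Share of a pseudogene's 50-base windows that occur unchanged in a parent transcript (horizontal, percent) against its log2 ratio of ADAR2+SRSF9 to ADAR2 (left) and its control level in CPM on a log axis (right), for 205 pseudogenes. The 2 copies at 100% lie just above 0, and levels are higher toward the right.

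By place in the genome the median log2 ratio of ADAR2+SRSF9 to ADAR2 was -0.49 for 23 members inside a protein-coding gene on its strand, -0.52 for 41 inside one on the opposite strand and -0.49 for 141 inside none. It was -0.50 for the 191 members whose exons overlap no other annotated exon and -0.33 for the 14 with an overlap. Copies of large-subunit genes (130) and of small-subunit genes (78) had medians of -0.50 and -0.49. The ratios varied more than counting allows: at 10 CPM or more in the control (83 members) the standard deviation over members was 0.20 on the log2 scale against a median counting error of 0.04, and the interval held the members' median in 33 of the 83. Median GC content was 47.0% for members and 48.4% for all genes tested.

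In ADAR2 against control the same pseudogenes differed little. Their median level was 5.53 CPM with ADAR2 and 5.44 CPM in the control, and the median log2 ratio was 0.03, against -0.01 over all genes tested. By the 1.5-fold count 1 member was lower and 1 higher, beside 1.05% lower and 0.398% higher over all genes. The lower one was RPL7AP33, a copy of the large-subunit gene RPL7A, with 0.693 CPM with ADAR2 and 2.10 CPM in the control. It had 1.15 CPM with both proteins and was also the 1 member higher there than in the ADAR2 library, a library that enters both comparisons. The higher one was RPL9P29, with 2.18 CPM with ADAR2 and 1.41 CPM in the control. These 2 are named because they are the only calls.

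At 5 CPM or more, the highest ratios of ADAR2 to control were those of RPS3P6, RPL4P2, RPL35P5, RPL5P3 and RPL7P48, at log2 ratios of 0.22 to 0.30. RPS3P6, RPL35P5 and RPL5P3 were also among the 10 lowest in ADAR2+SRSF9 against ADAR2, where the ADAR2 library is the denominator. The lowest were RPL7P26 (-0.30), RPL39P3 (-0.18), RPS4XP13 (-0.17), RPS27P29 (-0.17) and RPS3AP6 (-0.16). Their parents were also below 0: RPL7 (-0.19), RPL39 (-0.15), RPS4X (-0.13), RPS27 (-0.07) and RPS3A (-0.18). RPS3AP6 thus lay slightly above its parent. All 58 parents together had a median of -0.04, and 160 of the 208 members lay above their parent.

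Against the control, the ADAR2+SRSF9 library gave a median log2 ratio of -0.47, with 58 members lower by 1.5-fold (27.9%) and 0 higher. Over all genes tested 3.08% were lower and 1.14% higher. The control chose the members, and each library of this comparison also enters another one, so nothing is read from this count. The lowest at 5 CPM or more were RPS4XP14 (-1.005), RPL21P7 (-0.81), RPS10P3 (-0.80), RPL18P13 (-0.79) and RPL7P26 (-0.78). The highest were RPL32P3 (0.32), RPL23AP79 (0.16), RPL18AP3 (0.01), RPL41P1 (-0.01) and RPS2P5 (-0.04). RPL32P3 had a counting interval above 1 in both comparisons of the ADAR2+SRSF9 library.

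Pseudogenes of other genes had similar ratios in ADAR2+SRSF9 against ADAR2. The 1040 other processed pseudogenes at 1 CPM or more in the control had a median log2 ratio of -0.44, with 279 lower by 1.5-fold (26.8%). Those of a list of abundant non-ribosomal genes (199 measured) had a median of -0.47, with 54 lower. These 199 were picked by symbol and not kept apart from the 1040, so the 2 sets are not separate. The cytosolic ribosomal protein genes (77) had a median of 0.04 and the 12775 protein-coding genes one of 0.02, with 0 and 56 lower. Functional paralogues of ribosomal protein genes such as RPL22L1 and RPS27L (8 measured) had a median of -0.0020 with 0 past 1.5-fold, and the 74 mitochondrial ribosomal protein genes one of 0.05. Of all 432 genes lower by 1.5-fold, 68 were members, 279 were other processed pseudogenes and 56 were protein-coding. With 1 library per group the difference between members and other pseudogenes could not be tested. The 5 other genes at 10 CPM or more in the control whose pair of log2 ratios (ADAR2 against control, ADAR2+SRSF9 against ADAR2) lay nearest to the members' medians were all processed pseudogenes, 1 of them a transcribed one.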

How the data were processed

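Reads per gene were analysed for 3 libraries of total RNA, prepared with a strand-specific kit per the labels' protocols. The authors deposited whole-number counts per gene, not normalised. The submitters' processing notes name hg19, STAR, SAMtools, Picard and GATK, with no role or version for any. Which program counted the reads, its strand setting and its treatment of reads with several matches are not given in those notes.

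TMM factors (edgeR 4.0.16, R 4.3.3) scaled the library sizes, and CPM is the count over the scaled size times 1000000. Log2 ratios used a prior count of 0.5. Their 95% intervals were exact (Clopper-Pearson, on the split of a gene's reads between the pair of libraries) and cover counting error only. No p-value is given. A count of 3 reads corresponds to 0.0313 CPM with both proteins, 0.0223 CPM with ADAR2 and 0.0194 CPM in the control. The call rule was run on simulated Poisson counts with known changes, which checks the code only. Those counts hold no spread beyond counting error, so they do not show how reliable the calls are here.

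Gene types, overlaps and transcript sequences came from GENCODE v29 (GRCh38), matched on identifiers without versions. Coordinates are left out because the authors used another build. Members were aligned to protein-coding parent transcripts with blastn 2.17.0, and only the best single alignment of each member was kept. Other steps used Python 3.11.15, pandas 2.3.3, scipy 1.17.1 and matplotlib 3.10.9. DESeq2 1.42.0 size factors were an alternative.

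The members and lists were chosen with earlier results of these data known. Named members are the 10 highest control levels, the 10 lowest and 10 highest ratios of ADAR2+SRSF9 to ADAR2, the 5 lowest and 5 highest of each other comparison (all with 5 CPM or more in the control), 3 rows on either side of the limit, and the most abundant copy of the 6 largest families. The sequence of RPS2P5 and its parent is not reported here.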

Additional observations from a re-analysis of the deposited data

How the results depend on the processing

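No paired analysis was possible because each group has 1 library, and for the same reason no replicate could be left out. The yardsticks were 1.5 times for a count, the binomial interval of a median over members, and the binomial interval of a share of reads. Of 145 recomputed values, 109 stayed within theirs. Some outcomes were all but fixed by the setting, such as leaving out 1 of 208 members, so this tally does not measure robustness. The interval of a median treats members as independent, which copies of 1 family are not. In ADAR2+SRSF9 against ADAR2 the members' median log2 ratio was -0.54 with plain library totals and -0.45 with no filter on level. The 68 lower members became 11 of 83 at a control CPM of 10 or more, 113 with no filter and 20 with the interval wholly past 1.5-fold. Counts with no filter, here and below, are out of the 802 matching rows less the 198 with no read. That is a larger set than the 208 members, so those counts cannot be set directly against the filtered ones. At 2-fold they became 6, against 48 of the 16093 genes tested. Apart from genes lower by 2-fold, counts over all genes were not computed under the changed rules. The 1 higher member became 0 at a CPM of 10 or more, at 2-fold and with the interval past 1.5-fold, and 17 with no filter. The median of member minus parent was -0.52 at a CPM of 10 or more and -0.51 with no filter. In ADAR2+SRSF9 against control the median was -0.52 with plain totals, -0.42 at a CPM of 10 or more and -0.43 with no filter. Member minus parent was -0.40 at a CPM of 10 or more and -0.41 with no filter. The 58 lower members became 6, 110, 7 and 16 under a CPM of 10, no filter, 2-fold and the interval past 1.5-fold. Over all genes tested 81 were lower by 2-fold in that comparison. Higher members there became 24 with no filter. In ADAR2 against control 1 lower member became 2 with upper-quartile factors, 0 at a CPM of 10 and 19 with no filter, and 1 higher member became 0 at a CPM of 10, at 2-fold and with the interval past 1.5-fold, and 20 with no filter. The members' share of reads was 4.72% with both proteins, 5.90% with ADAR2 and 5.75% in the control without RPS2P5, and 16.3% with both proteins, 19.0% with ADAR2 and 18.5% in the control over genes whose exons overlap no other gene, which leaves out many parents. Fewer genes enter at a CPM of 10, and more at no filter. Plain totals shift the log2 ratio of every gene almost equally. With them the median over all genes tested was -0.03 for ADAR2+SRSF9 against ADAR2 and -0.06 for ADAR2+SRSF9 against control. With TMM those medians were 0.01 and -0.01. Elsewhere the cause was not tested. With the trend of log2 ratio with GC content removed the medians were -0.50 for ADAR2+SRSF9 against ADAR2, 0.03 for ADAR2 against control and -0.44 for ADAR2+SRSF9 against control. The alternative without RPL9P8 was chosen after seeing the data and left 68 lower members. Counting error limits the weakest members most: RPS4XP8, with 93 reads with both proteins and 136 with ADAR2, had an interval of 0.728 to 1.26 for ADAR2+SRSF9 against ADAR2.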

Other observations

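Members RPL9P8 and RPL9P9, both named as copies of the large-subunit gene RPL9, had almost the same number of reads in every library: 9866 and 9884 in the ADAR2+SRSF9 library, 18910 and 18916 in the ADAR2 library, and 22331 and 22336 in the control. They were the only pair of members within 1% of each other in all 3 libraries. Another copy, RPL9P7, had 2582 reads with both proteins, 4378 with ADAR2 and 5327 in the control. GENCODE v29 holds the identifier of RPL9P9 but not that of RPL9P8, and whether the 2 rows count the same reads was not tested.

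For 5 members GENCODE v29 gives the identifier another symbol than the deposited table, and for 3 it has no entry. The row named RPSAP56 bears the identifier that GENCODE v29 calls RPSAP58, while the row named RPSAP58 has an identifier it does not hold. RPSAP56 stood at 0.824 CPM with both proteins, 1.51 CPM with ADAR2 and 1.44 CPM in the control. It was thus far weaker than RPSAP58.

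Besides RPL41P1, RPL39P3, RPL32P3 and RPL7AP33, 3 members had a counting interval above 1 in ADAR2+SRSF9 against ADAR2, each weak in the control: RPL39P38 (4.29 CPM), RPS16P9 (2.39 CPM) and RPL23P2 (1.51 CPM). Their log2 ratios of ADAR2 to control were -0.29, -0.19 and -0.58, with the ADAR2 library in both comparisons. Only 4 mitochondrial ribosomal protein pseudogenes reached 1 CPM in the control, and their median log2 ratio of ADAR2+SRSF9 to ADAR2 was -0.09.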
